A study of Caenorhabditis elegans with 9 samples.

Results

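The 3 libraries described here came from untreated adult Caenorhabditis elegans, the water controls of a feeding experiment, harvested 48 hours after the fourth larval stage (L4). They were chosen by their labels as control plates and are 3 of 9 libraries in all. Whole animals were used, and the libraries were called water replicates 1, 2 and 3. The other libraries, 3 each, came from worms of the same stage on plates that held nicotinic acid or 1-methylnicotinamide (MNA, given at 1 µM). The labels state the dose of nicotinic acid once as 1 mM and once as 1 nM. All plates came from the same batch of agar, and total RNA (2 µg per library) entered a TruSeq RNA kit whose strand setting is not stated. The labels give no strain or sex and do not say that replicates were separate cultures, so p-values measure only the spread between these samples, which may be technical.

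A C. elegans adult 2 days after the last larval stage is, in a self-fertile hermaphrodite, a reproducing animal. Its intestine makes yolk proteins and secretes them for uptake by oocytes, its gonad holds germ cells from stem cells through meiosis to full-grown oocytes, and its uterus holds fertilised eggs that develop before they are laid. Sperm are made during late larval life and stored, so that the adult germline makes oocytes. The RNA of a whole adult is therefore a mixture of somatic tissues, germline and embryos. In such bulk libraries fewer cells of a type and less RNA per cell cannot be told apart.

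The water libraries held 22434246, 24588784 and 26655263 counts, and the compound libraries ran from 18501261 to 31247605. Levels are given as CPM, the counts of a gene scaled to the total of its library. A floor of 3 counts, which covers counting error only, corresponded to 0.113 to 0.134 CPM in the water libraries. Levels of different genes were compared per length where TPM is given. TPM is the CPM measure after division by exon length, computed from the counts and exon lengths. Rankings in CPM are by counts, which favour long transcripts. The water libraries correlated with each other at r = 0.993 to 0.995 on the log2 scale across genes, which are not independent replicates. Of 45461 entries in the table, 14183 were above the floor in all 3. Water replicate 1 and nicotinic acid replicate 1 stood somewhat apart: each was at least 2-fold above every other library for 12 and 11 of 8735 genes, in that order, and all other libraries for at most 1.

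Of 19268 protein-coding genes, 13498 (70.1%) were above the floor in every water library and 1924 had 0 counts in all 3. Protein-coding genes took 98.6% to 99.1% of the counts. A mean of at least 1 CPM was reached by 11685 entries, at least 10 CPM by 7366 and at least 100 CPM by 2314. Only the yolk protein genes vit-6 and vit-2 exceeded 10000 CPM. The 10 genes with the most counts held 9.92% ± 0.424 of a library (SD, n = 3), the top 100 held 23.9% ± 0.684 and the top 1000 held 58.6% ± 0.958. Between 605 and 671 genes held 50% of the counts of a library.

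By counts, which favour long transcripts, the most abundant genes were those of yolk, protein synthesis and the eggshell. The yolk protein gene vit-6 (K07H8.6) alone had 44233, 47050 and 42039 CPM in water replicates 1, 2 and 3. It was followed by vit-2 (C42D8.2) at 17046, 17438 and 16301 CPM. The translation elongation factor genes eef-1A.1 (F31E3.5) and eef-2 (F25H5.4) came next, with 8737, 8975 and 7434 CPM for the first and 5535, 5722 and 4889.6 CPM for the second. In these 4 genes the 3 libraries lay close together. The yolk gene vit-5 had 4357, 4521 and 3670.5 CPM, and the cytosolic chaperone genes hsp-90 (C47E8.5) and hsp-1 (F26D10.3) had 4100.2, 4478.5 and 3862 CPM for hsp-90 and 3743, 4124.5 and 3591 CPM for hsp-1.

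Eggshell components stood among the same 25 genes. The chitin-binding protein gene cbd-1 (H02I12.1) had 3923, 4207 and 3801 CPM, and the chondroitin proteoglycan genes cpg-2 (B0280.5) and cpg-1 (C07G2.1) had 3347, 3387 and 3194 CPM for cpg-2 and 3087, 3205 and 2770 CPM for cpg-1. Germline RNA-binding genes were also present: the RNA helicase gene cgh-1, whose product protects stored maternal messages, had 2689.6, 2879.6 and 2632 CPM, and the Y-box gene cey-2 had 2078, 2175 and 2098 CPM. From the intestine, the aspartyl protease genes asp-1 and asp-6 had 2813.5, 2737 and 2786 CPM for asp-1 and 2245, 2059 and 2109 CPM for asp-6. The mitochondrial ADP/ATP carrier gene ant-1.1 had 3532, 3585 and 3532 CPM and the ATP synthase subunit gene atp-2 had 2188, 2293 and 2064.5 CPM. The others were rpl-3, rpl-4 and rla-0 (ribosomal proteins), pab-1 (poly(A)-binding protein), eef-1G (elongation factor), vig-1, the fatty acid and retinol binding protein gene far-2, C17F4.7, and a ribosomal RNA gene, rrn-3.1. The values of rrn-3.1 were spread widely, at 2202.5, 2977 and 6134 CPM.

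**Figure D1:**
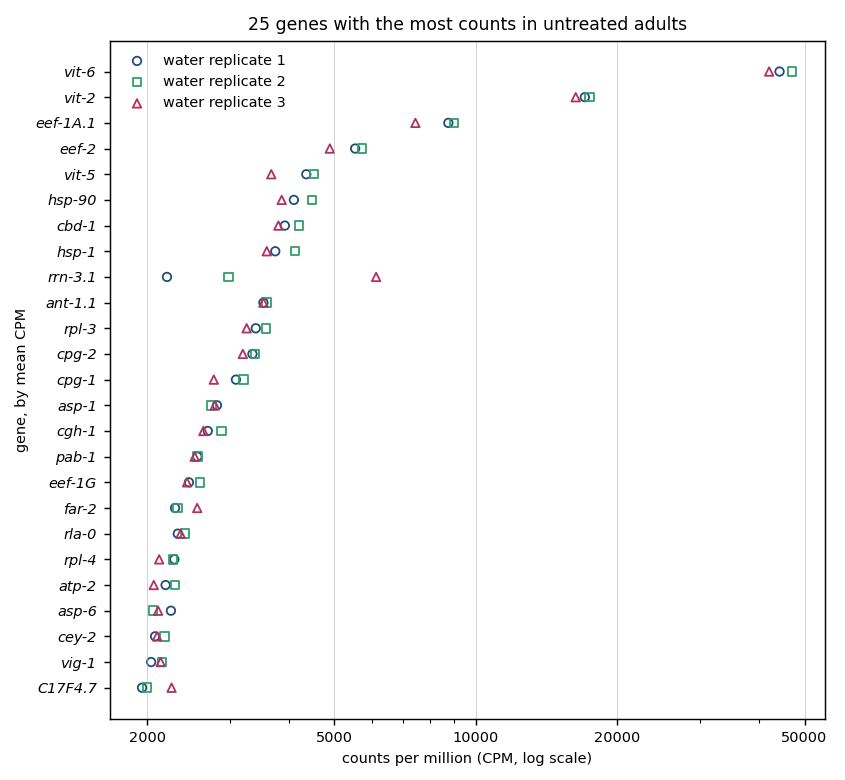
The 25 genes with the most counts in the water libraries, in CPM on a log axis; each symbol is 1 library. Symbols lie close together for every gene but rrn-3.1, which ran from 2202.5 to 6134 CPM.

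Per length the order changed, and only 9 of the 25 genes with the most counts were among the 25 highest by TPM. The highest were vit-6 at 12807 ± 819 TPM (SD, n = 3), eef-1A.1 at 7962 ± 864 TPM, far-2 at 5691 ± 279 TPM and vit-2 at 5007 ± 217 TPM. They were followed by the small ribosomal protein gene rps-25 at 4504 TPM, C17F4.7 at 4476 TPM and ant-1.1 at 4034 TPM. In this order far-2 and vit-2 differed by more than their SDs, while rps-25 (SD 338) overlapped within SDs with vit-2 above it and C17F4.7 (SD 302) below it. Ribosomal protein genes such as rps-23, rps-8 and rpl-6 filled most of the remaining ranks, together with sip-1, a small heat shock protein gene of oocytes and embryos, at 3405 TPM. The 80 cytosolic ribosomal protein genes together held 7.46% ± 0.142 of the counts (SD, n = 3) and 18.1% ± 0.305 of the summed TPM. The 6 yolk protein genes, whose transcripts are long, held 6.79% ± 0.370 of the counts and 1.97% ± 0.122 of the summed TPM.

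Genes on the X chromosome were low. Protein-coding genes on X above the floor had a median of 6.64 TPM (2037 genes), against 33.7 TPM on chromosome I (2150 genes) and 32.1 TPM on III (2128 genes). The median on V was 6.96 TPM, but only 54.9% of the genes on V were above the floor, against 77.5% on X. Of the 1000 protein-coding genes with the highest TPM, 68 (6.8%) were on X, which holds 13.6% of all protein-coding genes. X took 8.28% to 8.44% of the counts in the 3 libraries, and 5.82% to 6.11% without the yolk protein genes, of which 5 of 6 are on X. None of the 75 genes in the lists for germline stem cells and P granules, meiosis, oocytes and eggshell lies on X (0 of 19, 0 of 21, 0 of 20 and 0 of 15). Of the body wall muscle list 6 of 17 lie on X, of the intestine list 2 of 15, of the neuron list 2 of 16, of the sensory neuron list 5 of 13 and of the embryo patterning list 0 of 12.

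**Figure D2:**
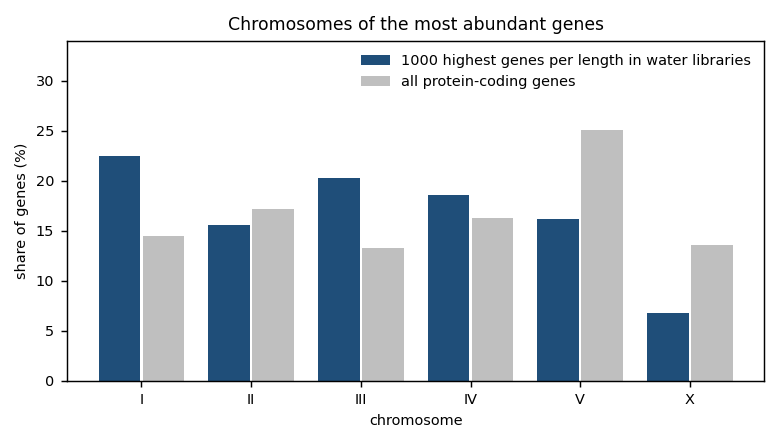
Share of genes on each chromosome, for the 1000 protein-coding genes with the highest level per length in the water libraries and for all protein-coding genes. X holds 6.8% of the first set and 13.6% of the second, while I holds 22.5% and 14.5%.

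Intestinal genes were detected throughout, and vit-6 and vit-2 stood above all members of the intestine list. All 15 members of the intestine list were above the floor in every library, and together they held 0.437% ± 0.00886 of the counts (SD, n = 3). Within it asp-1 stood at 3404 TPM, the cysteine protease gene cpr-1 at 559 TPM, the microvillar actin gene act-5 at 449 TPM and the proton pump subunit gene vha-6 at 143 TPM. The transcription factor gene elt-2, which defines the intestinal lineage, had 15.2, 14.3 and 15.7 CPM and its relative elt-7 had 6.69, 5.53 and 5.82 CPM, a level of 14.1 TPM for the first and 10.4 TPM for the second. Of the yolk genes, vit-5 had 1254 TPM, vit-1 412 TPM, vit-3 143 TPM and vit-4 117 TPM. The genes vit-3, vit-4 and vit-5 are close copies, as are vit-1 and vit-2, so their individual values depend on how shared reads were assigned. All 6 yolk genes were highest in water replicate 2, whose share was 7.17%, against 6.75% in replicate 1 and 6.43% in replicate 3. Over all entries of at least 1 CPM, replicate 2 was highest for 13.8%.

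Germline genes were all detected and varied little between libraries. All 19 stem cell and P granule genes, all 21 meiosis genes and all 20 oocyte and maternal genes were above 1 CPM. The first list held 0.540% ± 0.0161 of the counts, the second 0.127% ± 0.00330 and the last 0.950% ± 0.0286 (SD, n = 3). The ratio of the highest to the lowest share of a list was 1.05 to 1.06 in these 3 lists. The median SD of their members over the water libraries was 0.0625, 0.0666 and 0.0515 on the log2(CPM + 0.5) scale, against 0.0804 for all genes of at least 5 CPM. The median members had 239, 48.5 and 416 CPM, and this comparison was not matched for abundance. Ribosomal protein genes had 0.0486 by the same measure.

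In the mitotic part of the gonad, the Notch receptor gene glp-1 had 299.6, 324 and 331 CPM and its target sygl-1, which keeps stem cells from entering meiosis, had 132, 142 and 152 CPM. The translational repressor gld-1, which acts as cells enter meiosis, was the highest of that list by CPM, with 1023, 1096 and 1100.1. P granule genes followed, such as pgl-1 at 477, 502 and 491 CPM, csr-1, an Argonaute, at 479, 511 and 467 CPM and daz-1, an RNA-binding protein needed for oogenesis, at 488, 509 and 505 CPM. Of the meiosis genes, syp-4, part of the synaptonemal complex, had 158, 162 and 178 CPM, the axis gene htp-3 had 131.5, 133 and 143 CPM and the recombinase gene rad-51 had 91.7, 91.3 and 87.8 CPM. The gene spo-11, which makes meiotic DNA breaks, had 41.99, 40.0 and 45.2 CPM. Per length, the median of the meiosis list was 43.4 TPM, against 158.9 TPM for stem cell and P granule genes and 313.3 TPM for oocyte and maternal genes.

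Among maternal messages, puf-5, a translational repressor of oocytes, had 1373, 1427 and 1429.5 CPM, mex-5, which polarises the early embryo, 1039, 1118 and 1117.5 CPM, and the embryonic fate regulator pos-1 924, 982 and 1025 CPM. The gene spn-4 had 866, 917 and 944 CPM. Per length pos-1 led with 1276 ± 52.7 TPM, followed by puf-5 at 994 ± 15.8 TPM, spn-4 at 871 ± 29.1 TPM and mex-5 at 806 ± 27.9 TPM (SD, n = 3). The maturation factors oma-1 and oma-2 had 294 TPM for oma-1 and 536 TPM for oma-2. Of the 20 members, 16 were lowest in water replicate 1.

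The 15 eggshell genes held 1.81% ± 0.0520 of the counts (SD, n = 3), and all were above 1 CPM. Per length cpg-2 at 2803 ± 114.7 TPM, cpg-1 at 2334 ± 195.5 TPM, perm-2 at 2291 ± 46.5 TPM and perm-4 at 2195 ± 79.6 TPM were the highest. The genes perm-2 and perm-4 encode parts of the outer vitelline layer of the eggshell. The chitin synthase gene chs-1 had 713, 724 and 705 CPM, and rme-2, the yolk receptor of oocytes, had 1466, 1581 and 1493 CPM. The egg activation genes egg-4 and egg-5, near-identical copies, had only 15.3, 18.8 and 19.1 CPM for egg-4 and 16.98, 19.03 and 17.6 CPM for egg-5, values that depend on how shared reads were assigned.

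Genes listed for embryos were detected, with the late list above the early and patterning lists. The 20 genes first transcribed in the early embryo held 0.00873% ± 0.000430 of the counts, the 12 patterning genes 0.0117% ± 0.00146 and the 12 genes of late embryos 0.0896% ± 0.0221 (SD, n = 3). These shares rest on different numbers of genes, and the median member had 1.47 TPM in the early list, 8.38 TPM in the patterning list and 32.7 TPM in the late list. Of the early genes 15 were above the floor in every library and 9 had at least 1 CPM.

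The endoderm specifying gene end-1 had 1.29, 0.325 and 0.713 CPM and end-3 0.669, 0.244 and 0.413 CPM, close to the floor. Their activators med-1 and med-2, which are near-identical copies, had 0 counts in all 3 libraries for med-1 and 1 count in replicate 2 alone for med-2. The highest early members were sdz-27 at 25.6, 26.4 and 28.8 CPM, the T-box gene tbx-9 at 19.4, 20.5 and 21.2 CPM and sdz-30 at 16.09, 13.5 and 10.9 CPM. Among patterning genes the pharynx selector pha-4 had 31.2, 22.3 and 29.8 CPM, the T-box gene tbx-2 18.4, 14.4 and 19.8 CPM and the homeobox gene ceh-43 15.96, 14.2 and 15.7 CPM. The Hox gene ceh-13 had 11.9, 10.3 and 10.9 CPM, lin-39 7.89, 5.69 and 7.77 CPM and egl-5 3.12, 2.03 and 2.85 CPM. All 12 patterning genes were lowest in water replicate 2, against 51.3% of all entries of at least 1 CPM. Several of these genes are also used in larval and adult somatic cells, so their counts need not be those of embryos alone.

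Late embryo genes act as the epidermis lays down its first extracellular matrix and cuticle. They had a ratio of 1.65 between the highest and lowest share of a library, against 1.26 for patterning genes and 1.103 for early genes. The ratio was not particular to this list, with 1.73 for body shape collagens and 1.46 for moulting genes. The list held 0.112%, 0.0683% and 0.0882% of the counts in water replicates 1, 2 and 3. The matrix gene noah-1 had 185, 117 and 124 CPM and the collagen gene dpy-17 had 186, 102 and 167 CPM. The collagen genes sqt-3 and dpy-14 had 182, 90.4 and 152 CPM for sqt-3 and 155, 92.4 and 138.4 CPM for dpy-14. The gene hch-1, which encodes the protease that opens the eggshell at hatching, had 40.3, 26.1 and 27.8 CPM. All 12 members were highest in water replicate 1 and 11 of 12 were lowest in water replicate 2. Over all 11685 entries of at least 1 CPM, replicate 1 was highest for 35.2% and replicate 2 lowest for 51.3%. Use of the members in larval or adult somatic cells was not examined, so their counts need not be those of embryos alone.

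Most transcripts of sperm production were at or near the floor. Of 32 sperm genes 13 were above the floor in every library and 6 had at least 1 CPM, and the list held 0.00577% ± 0.000237 of the counts (SD, n = 3). The highest was fog-1, a regulator of the sperm fate in the germline, at 26.1, 24.4 and 28.4 CPM, followed by spe-41 at 9.32, 9.48 and 10.8 CPM, the myosin gene spe-15 at 9.23, 9.11 and 9.27 CPM and the kinase gene spe-6 at 2.99, 3.50 and 3.79 CPM. The 35 major sperm protein genes, which encode the cytoskeletal protein of sperm in many near-identical copies, had 0 members above the floor, and 23 had 0 counts in all 3 libraries. Their summed share was 0.0000178%, 0.0000488% and 0.0000488%. How reads shared between copies were assigned is not stated, so a 0 in this family is uncertain.

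Markers of males were also at or near the floor. Of 9 male genes, 4 were above it in every library and 0 reached 1 CPM. The genes cwp-1 and cwp-2, of male sensory neurons, had 0 counts in all 3 libraries. The polycystin genes lov-1 and pkd-2 had 0.0891, 0.0813 and 0.0375 CPM for lov-1 and 0.134, 0.122 and 0.113 CPM for pkd-2, and the highest members were her-1 at 0.624, 0.447 and 0.638 CPM and cwp-4 at 0.713, 0.285 and 0.563 CPM.

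Body wall muscle was well represented. Of its 17 genes 16 were above the floor, together with 0.433% ± 0.0288 of the counts (SD, n = 3). The myosin heavy chain gene unc-54 had 1141, 991 and 1116 CPM, the paramyosin gene unc-15 524, 487 and 534 CPM, the tropomyosin gene lev-11 468, 428 and 501 CPM and the troponin C gene pat-10 402, 407 and 481 CPM. Per length pat-10 was the highest of these at 641 TPM, and the giant genes were the lowest, with unc-89 at 6.74 TPM and ttn-1 at 1.92 TPM. The muscle regulator hlh-1 was listed at 0 counts in all 9 libraries although the structural genes of the same cells were high. Of the 16 detected members 12 were highest in water replicate 3 and 12 lowest in replicate 2, which over all entries of at least 1 CPM hold for 50.99% and 51.3%.

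Pharyngeal muscle, a small organ, held 0.0270% ± 0.00575 of the counts over 6 genes. The pharyngeal myosins myo-2 and myo-1 had 108, 86.99 and 129.7 CPM for myo-2 and 97.9, 79.2 and 119.5 CPM for myo-1. All 6 genes were highest in water replicate 3 and lowest in replicate 2, with a ratio of 1.53 between the list's shares. Over all entries of at least 1 CPM, replicate 3 was highest for 50.99% and replicate 2 lowest for 51.3%. The pharyngeal gland genes were weaker: 7 genes held 0.00167% ± 0.000273 of the counts, led by phat-6 at 6.51, 4.92 and 5.85 CPM.

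Adult cuticle was visible through a few collagens. The 159 numbered collagen genes held 1.01% ± 0.117 of the counts (SD, n = 3), 77 of them with at least 1 CPM and 11 at 0 counts in all 3 libraries. The highest were col-119 at 1355, 1624 and 1291.5 CPM, col-122 at 1059, 1233 and 986 CPM, col-140 at 1051, 1203 and 949.6 CPM and col-181 at 808, 993 and 812 CPM. The adult marker col-19 had 303, 353 and 288 CPM. Other collagens tied to the making of the adult cuticle were low, with rol-1 at 1.16, 2.48 and 0.9004 CPM, bli-1 at 0.669, 0.976 and 0.563 CPM and bli-2 at 0.267, 1.02 and 0.450 CPM. All 7 adult cuticle collagens with at least 1 CPM were highest in water replicate 2, against 13.8% of all such entries. The genes col-7 and col-62 were listed at 0 counts in all 3 water libraries.

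The list called body shape collagens, 14 collagens of the moulting cycle with col-12, col-13 and col-14 among them, held 0.0179% ± 0.00479 of the counts. The highest was dpy-10 at 38.8, 29.5 and 45.5 CPM. Of the 12 with at least 1 CPM, 11 were highest in water replicate 3 and 10 lowest in replicate 2. Over all such entries these held for 50.99% and 51.3%. Moulting genes held 0.0223% ± 0.00419, led by the protease inhibitor gene mlt-11 at 132, 82.7 and 102 CPM. In the epidermis list, with 0.0331% ± 0.00181 of the counts, lin-26, which maintains epidermal fate, had 129, 126 and 137.7 CPM. The moulting regulator nhr-23 had 64.2, 69.8 and 72.7 CPM and the hedgehog-related gene wrt-10 had 23.5, 20.9 and 28.2 CPM.

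Neuronal genes were detected at low levels. All 16 pan-neuronal genes had at least 1 CPM and held 0.0465% ± 0.00450 of the counts (SD, n = 3). The vesicle protein gene snb-1 had 143, 131 and 142 CPM, the neuropeptide processing genes egl-3 and egl-21 had 80.4, 61.3 and 74.5 CPM for egl-3 and 57.6, 53.0 and 62.1 CPM for egl-21, and ida-1, of dense core vesicles, had 44.1, 29.9 and 39.8 CPM. By counts the synaptic genes rab-3 and snt-1 were lower, with 9.05, 7.61 and 8.14 CPM for rab-3 and 8.83, 6.95 and 7.92 CPM for snt-1. Of the 16, 15 were lowest in water replicate 2, against 51.3% of all entries of at least 1 CPM.

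Among transmitter genes the values depended on the type. The GABA synthesis gene unc-25 had 11.6, 9.72 and 10.9 CPM, the acetylcholine transporter gene unc-17 6.51, 4.43 and 6.30 CPM and the glutamate transporter gene eat-4 2.94, 2.44 and 2.63 CPM. By counts the dopamine and serotonin genes were weaker, with cat-2 at 0.357, 0.366 and 0.338 CPM and tph-1 at 0.223, 0.407 and 0.375 CPM. The tyramine and octopamine enzymes tdc-1 and tbh-1, which the gonadal sheath makes as well as a few neurons, stood far above, with 316, 326 and 329 CPM for tdc-1 and 253, 271 and 271 CPM for tbh-1. Per length tdc-1 had 189.6 TPM and tbh-1 177 TPM, against 9.14 TPM for unc-25. Of the sensory neuron list, the touch cell genes mec-7, a tubulin, and mec-17, a tubulin acetyltransferase, had 26.4, 21.7 and 20.3 CPM for mec-7 and 14.04, 11.3 and 11.9 CPM for mec-17. The channel genes tax-2 and tax-4 had 0.357, 0.285 and 0.3001 CPM for tax-2 and 0.267, 0.447 and 0.263 CPM for tax-4. Of 1629 chemoreceptor genes, a family chosen after the counts had been examined, 71 were above the floor, 764 had 0 counts in all 3 libraries, and the highest, srr-4, had 24.96, 21.1 and 23.3 CPM.

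The somatic gonad and egg-laying organs were represented by fewer counts. The 8 somatic gonad genes held 0.0823% ± 0.00498 of the counts, of which the filamin gene fln-1 made the most with 720.5, 668 and 623 CPM. The gap junction gene inx-8 of the sheath had 107, 102 and 109 CPM and the sheath transcription factor gene lim-7 7.71, 6.14 and 7.47 CPM. The uterus and vulva genes held 0.00733% ± 0.000654, with cdh-3 at 28.1, 22.7 and 29.1 CPM and egl-26 at 22.7, 22.2 and 24.0 CPM. Excretory genes held 0.00865% ± 0.000727, led by the aquaporin gene aqp-8 at 46.2, 47.7 and 35.7 CPM and the chloride channel gene exc-4 at 35.7, 32.2 and 32.5 CPM. The 3 genes of the scavenger cells called coelomocytes held 0.000700% ± 0.000137, led by cup-4 at 4.72, 3.70 and 2.40 CPM. In glia fig-1 had 14.98, 15.4 and 16.02 CPM, and delm-1 was at 0 counts in all 3 water libraries.

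Heat-inducible genes were at or near the floor, whereas constitutive chaperones were abundant. The 9 constitutive chaperone genes held 1.28% ± 0.0768 of the counts (SD, n = 3), with the mitochondrial chaperone hsp-6 at 1114, 1148 and 1063 CPM and the endoplasmic reticulum chaperone hsp-3 at 927, 867 and 849 CPM beside hsp-90 and hsp-1. The 5 matched heat-inducible genes together held 0.0000579%, 0.0000569% and 0.0000375% in water replicates 1, 2 and 3. Of these, hsp-70 had 0.357, 0.366 and 0.150 CPM and hsp-16.2 had 0.178, 0.163 and 0.113 CPM. The infection reporter pals-5 of the intracellular pathogen response was at 0 counts in all 3 water libraries, while skr-3 of the same list had 24.9, 21.3 and 24.8 CPM.

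Genes of propionate breakdown were abundant. The first enzyme of the propionate shunt, the acyl-CoA dehydrogenase gene acdh-1, a common reporter of low vitamin B12, had 1379, 1253 and 1318 CPM. The dehydrogenase gene alh-8 had 1235, 1223 and 1204 CPM and hphd-1 610.2, 633 and 654 CPM. The gene mmcm-1, of the B12-dependent route, had 193, 189 and 186 CPM. Per length acdh-1 was at 1145 ± 60.2 TPM and mmcm-1 at 112 ± 3.41 TPM (SD, n = 3). The 16 genes of NAD synthesis and use, the pathway of the added compounds, held 0.0604% ± 0.000160 of the counts. Per length the orotate enzyme gene umps-1, which also acts on quinolinic acid on the way to NAD, had 113 TPM, the NAD synthetase gene qns-1 67.6 TPM, the nicotinate phosphoribosyltransferase gene nprt-1 65.7 TPM and the sirtuin gene sir-2.1 62.4 TPM. The nicotinamide N-methyltransferase gene anmt-1, whose product makes MNA, was low by counts, at 2.32, 2.11 and 2.70 CPM.

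The mitochondrial genome was covered unevenly. Of its 12 protein-coding genes 8 were above the floor and together held 0.303% ± 0.0105 of the counts. The cytochrome b gene (MTCE.21) had 1149.8, 1109.5 and 1191 CPM, the cytochrome oxidase genes COX2 and COX3 had 704, 644 and 682 CPM for COX2 and 584, 564 and 604.5 CPM for COX3, and ND1 had 319.5, 298 and 324 CPM. In contrast COX1, ND5, ATP6 and ND4L were listed at 0 counts in all 3 water libraries, so the share covers only the other 8. Of 72 histone genes 39 were at 0 in all 3 water libraries, and the highest were the linker histone gene his-24 at 220.3, 179 and 219 CPM and the H3.3 gene his-72 at 210.0, 190.0 and 202 CPM. Most histone genes are near-identical copies, so a 0 here is uncertain too. Of 20 ribosomal RNA genes 3 were above the floor and 17 were at 0 counts in all 3 libraries.

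**Figure D3:**
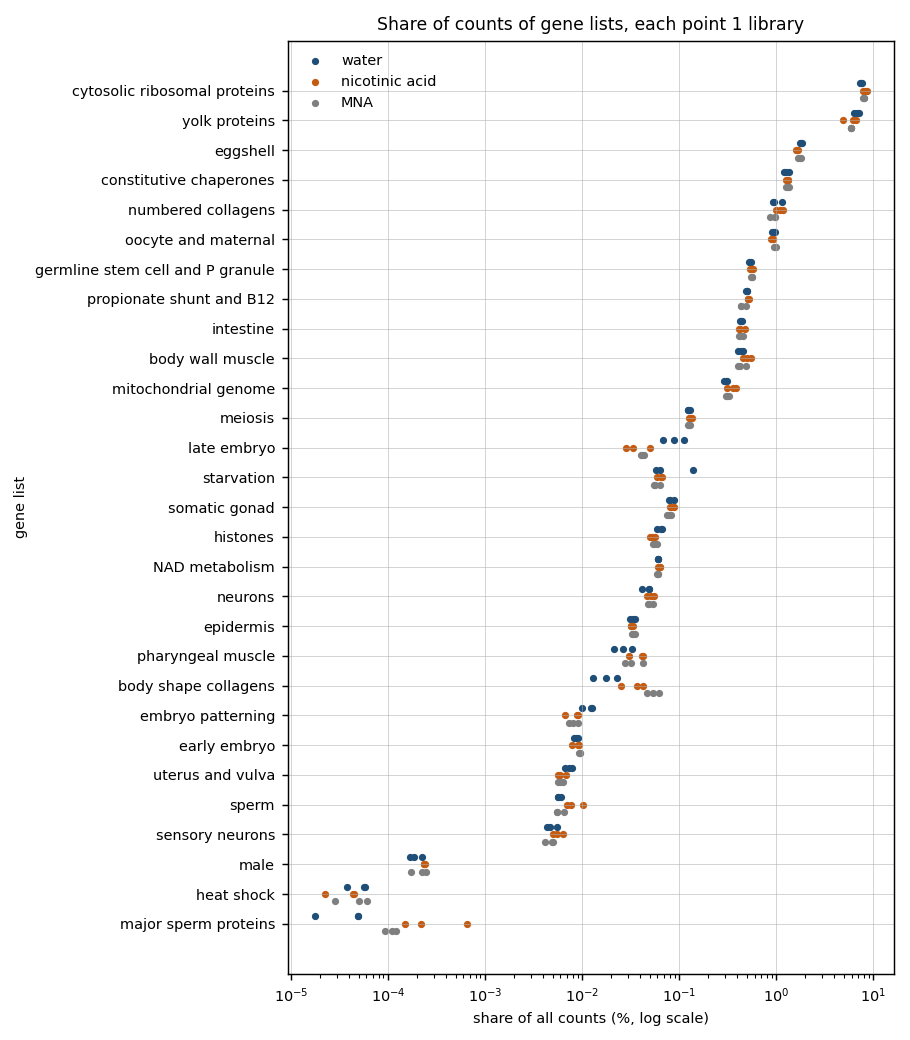
Share of all counts held by each gene list, as a percent on a log axis, with a point for each library and the water libraries above nicotinic acid and MNA. Ribosomal proteins and yolk lead in every group, and the late embryo points of water lie between 0.0683% and 0.112%, above those of both compounds.

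The water libraries were alike for most genes. Over 8690 genes with a mean of at least 5 CPM, the median SD of log2(CPM + 0.5) was 0.0804, and 86.4% of genes had an SD under 0.2. Counting error alone would give a median near 0.0448. The same measure was 0.0821 within the nicotinic acid libraries and 0.0675 within the MNA libraries. Among genes of at least 100 CPM, the steadiest were eat-3, a dynamin of mitochondrial fusion, at 180.3, 180.1 and 180 CPM, and rsd-6 at 205, 204 and 205 CPM, followed by Y32B12B.4, natc-1 and jhdm-1.

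A set of 50 genes varied most, chosen by that SD, which ran from 1.99 down to 0.593 (the next gene had 0.585). Water replicate 1 was the highest for 42 of the 50, and water replicate 2 the lowest for 35. Over all entries of at least 1 CPM these held for 35.2% and 51.3%. Within the nicotinic acid libraries, which did not choose them, the same 50 genes had a median SD of 0.241, and 29 exceeded the 90th percentile of all genes there. Within the MNA libraries the median was 0.222, and 31 exceeded that percentile. By definition 10% of all genes exceed it. The comparison was not matched for abundance. In the water libraries counting error alone would give an SD of up to 0.141 among the 50, against a median of 0.0448 over all genes.

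The gene F45D3.4, to which no role is given here, had 117, 13.4 and 11.4 CPM in water replicates 1, 2 and 3. With nicotinic acid it was at 13.4, 13.6 and 10.9 CPM and with MNA at 17.05, 14.8 and 13.8 CPM. Replicate 1 thus stood apart from all 8 other libraries. The secreted protein gene scl-2 had 35.5, 5.61 and 5.97 CPM in the water libraries, against at most 7.88 CPM with either compound, and C06B3.6 had 47.3, 10.5 and 10.9 CPM, against at most 11.6 CPM.

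Genes of fat use were among those high in water replicate 1. The acyl-CoA synthetase gene acs-2, known for its rise on fasting, had 353, 138.2 and 139.9 CPM in the water libraries, 154, 145 and 163 CPM with nicotinic acid and 93.1, 91.3 and 140.2 CPM with MNA. The glyoxylate cycle gene icl-1, which lets worms make sugar from fat, had 1042, 503 and 434 CPM in the water libraries, 438, 514 and 480.0 CPM with nicotinic acid and 449, 464 and 499 CPM with MNA. The alcohol dehydrogenase gene adh-1 had 131, 50.8 and 60.5 CPM in the water libraries. For each, replicate 1 was the highest of the 9 libraries, and the other water libraries were close to each other. The 7 starvation genes as a list held 0.140%, 0.0643% and 0.0577% of the counts in water replicates 1, 2 and 3. Nearly all of this share came from icl-1 and acs-2, so it adds little to their own values. Most lipase genes of the list were near 1 CPM. In the water libraries lipl-2 had 1.34, 0.732 and 0.750 CPM and lipl-3 had 1.11, 0.325 and 0.675 CPM. Likewise lipl-4 had 1.07, 0.651 and 1.09 CPM and fil-1 had 2.05, 0.529 and 0.600 CPM. The remaining member, fil-2, was the lowest, with a mean of 0.0659 CPM. Of lipl-2, lipl-3, lipl-4 and fil-1, all but lipl-4 were highest in replicate 1 among the water libraries.

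The long noncoding RNA tts-1 was also highest in replicate 1, with 227, 79.9 and 77.5 CPM in the water libraries, 102, 94.4 and 91.7 CPM with nicotinic acid and 125, 117 and 127 CPM with MNA. Over all genes of at least 5 CPM, water replicate 1 was at least 2-fold above every other library for 12 genes. Water replicate 1 stood out in F45D3.4, scl-2, C06B3.6, coel-1, F53A9.8, Y54G2A.11, C50F7.5, F09F7.6, F21C10.10, acs-2, ZC443.3 and icl-1. The same count was 0 for water replicate 2, 1 for water replicate 3 and 11 for nicotinic acid replicate 1, and 0 for each of the other compound libraries. Water replicate 2 was at least 2-fold below every other library for 4 genes.

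Ribosomal RNA ran in another order. The gene rrn-2.1, of 5.8S ribosomal RNA, had 10.5, 45.4 and 172.5 CPM in water replicates 1, 2 and 3, and rrn-3.1, of the large subunit, had 2202.5, 2977 and 6134 CPM. Both were lowest in replicate 1 and highest in replicate 3. The compound libraries spread as well, from 14.6 to 73.7 CPM for rrn-2.1. The share of ribosomal RNA in all counts was 0.221%, 0.302% and 0.631% in the water libraries, and its part in the other differences between these libraries was not tested.

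A smaller group among the 50 held cuticle genes. The collagen gene col-165 had 20.1, 6.06 and 11.9 CPM in the water libraries and the cuticlin gene cut-3 had 15.5, 4.80 and 7.88 CPM, both lowest in replicate 2 among the water libraries. The collagen gene col-17 had 10.9, 5.41 and 15.4 CPM in the water libraries, against 38.3, 40.0 and 24.1 CPM with nicotinic acid and 68.1, 80.9 and 59.7 CPM with MNA, so that all water values lay below all compound values. For these genes the libraries of a compound were also uneven: the SD of col-165 was 0.827 in the water libraries, 0.707 with nicotinic acid and 0.878 with MNA. For acs-2 it was 0.774 in the water libraries, 0.0837 with nicotinic acid and 0.348 with MNA.

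**Figure D4:**
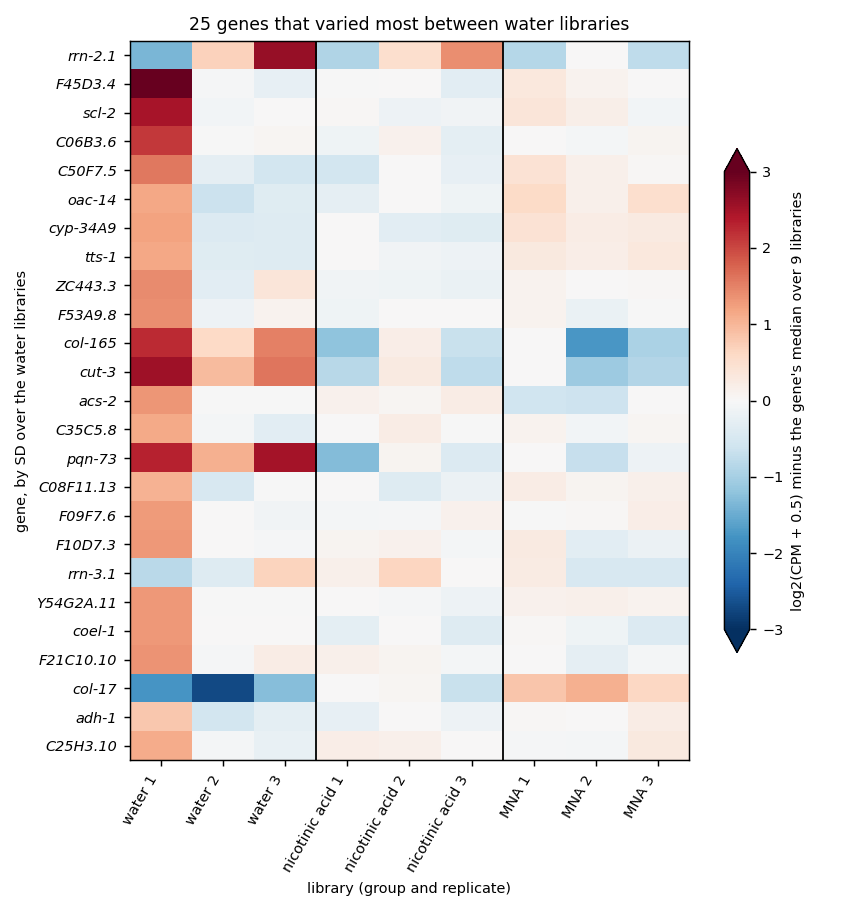
The 25 genes with the largest SD over the water libraries, shown as log2(CPM + 0.5) minus each gene's median over all 9 libraries (colours end at -3 and 3). Most rows are most strongly red in water replicate 1, while rrn-2.1 and rrn-3.1 are blue there and red in water replicate 3.

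The comparison with the 6 compound libraries asks how the baseline stands against both treated groups at once. It was tested with edgeR's quasi-likelihood model over all 9 libraries (Benjamini-Hochberg adjusted, threshold 0.05), as water minus the mean of nicotinic acid and MNA. Of 13985 genes tested, 684 (4.89%) were higher and 423 (3.02%) were lower in the water libraries. The water libraries lay above all 6 compound libraries for 742 genes (5.31%) and below them for 708 (5.06%). Without water replicate 1, 326 were called higher and 179 lower; without water replicate 3, 420 and 263; and without water replicate 2, 224 were called lower. The lower count was also 271 without MNA replicate 1 and 256 without MNA replicate 2. Both tests of a compound against control share these water libraries, so this contrast is not independent of them.

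Late embryo genes were higher in the water libraries. Of 12 members 9 were higher and 0 lower, with a median difference of 1.12 on the log2 scale, against a median of -0.000826 over all genes tested and the 4.89% of all genes called higher. The list was written with earlier results of these libraries known, in which several members were low with MNA, so the count is not independent evidence. The collagen gene dpy-14 had 155, 92.4 and 138.4 CPM in water replicates 1, 2 and 3. It had 7.62, 33.3 and 26.7 CPM with nicotinic acid and 16.9, 12.6 and 24.6 CPM with MNA. The groups did not overlap, and the difference was 2.70 (SE 0.42, edgeR adjusted p = 0.0135).

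The hatching protease gene hch-1 had 40.3, 26.1 and 27.8 CPM in the water libraries, 1.252, 9.68 and 6.11 CPM with nicotinic acid and 4.33, 2.47 and 5.08 CPM with MNA (difference 2.78, SE 0.48, edgeR adjusted p = 0.0188). The intermediate filament gene ifa-3 had 13.1, 7.89 and 8.97 CPM in the water libraries, 0.626, 2.70 and 2.05 CPM with nicotinic acid and 1.79, 0.858 and 1.04 CPM with MNA (difference 2.80, SE 0.35, edgeR adjusted p = 0.00342). In both, every water value exceeded every compound value. The collagen gene dpy-17 had 186, 102 and 167 CPM in the water libraries, 12.7, 40.5 and 34.3 CPM with nicotinic acid and 21.2, 15.9 and 28.2 CPM with MNA, a difference of 2.62. The other called members were cut-3 at 2.72, the matrix genes fbn-1 at 1.19, dex-1 at 1.06 and let-653 at 0.37, and sym-1 at 0.63 on the log2 scale. The matrix genes noah-1 and noah-2 did not overlap between groups either but missed the threshold (edgeR adjusted p = 0.0732 for noah-1 and 0.0722 for noah-2). For sqt-3 the water values were 182, 90.4 and 152 CPM. They overlapped those of 80.5, 99.9 and 65.7 CPM with nicotinic acid and 125, 134 and 108 CPM with MNA. Larvae use sqt-3 as well, and use of the other members outside embryos was not examined.

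Without water replicate 1, the highest library for all 12 genes, 3 of 12 were called, with a median of 0.965. Without water replicate 2 there were 7, and without water replicate 3 there were 3. Leaving out MNA replicate 1 or MNA replicate 2 left 5 in each case. The share of the list was 0.112%, 0.0683% and 0.0882% in the water libraries, 0.0286%, 0.0497% and 0.0332% with nicotinic acid and 0.0432%, 0.0419% and 0.0408% with MNA. The water shares lay above those of both compounds.

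**Figure D5:**
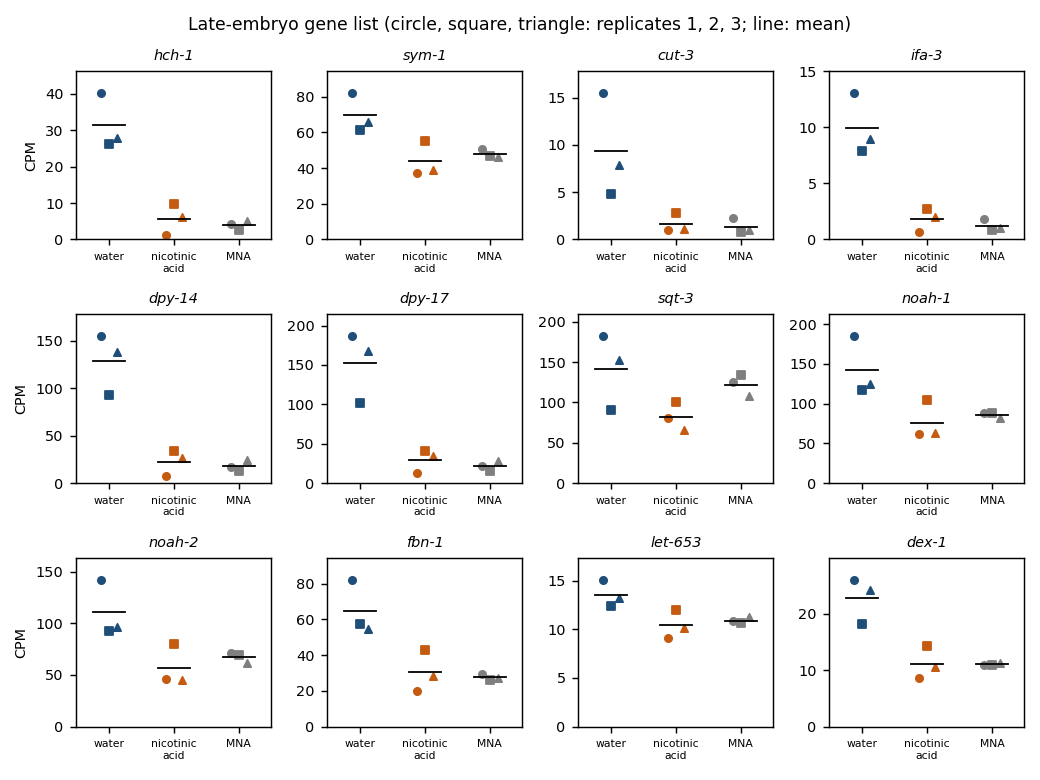
Levels in CPM of the 12 late embryo genes in every library, water left of nicotinic acid and MNA, with the mean as a line. Water lies above both compounds for 11 genes, and sqt-3 overlaps.

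Patterning genes had 4 of 12 members higher and 0 lower, with a median of 0.37, beside the 4.89% of all genes called higher. These were ceh-43, tbx-2, unc-130 and pha-4. The homeobox gene ceh-43 had 15.96, 14.2 and 15.7 CPM in the water libraries, 7.30, 10.9 and 9.98 CPM with nicotinic acid and 9.67, 7.51 and 10.1 CPM with MNA (difference 0.75, SE 0.12, edgeR adjusted p = 0.00337). The Hox genes lin-39, egl-5 and mab-5 overlapped between groups. Of 15 early embryo genes tested 1 was higher, a share near that of all genes. This was tbx-8, with 3.16, 3.09 and 2.101 CPM in the water libraries, 0.835, 1.62 and 1.54 CPM with nicotinic acid and 1.17, 1.04 and 1.44 CPM with MNA (edgeR adjusted p = 0.00746). In the uterus and vulva list cdh-3 (difference 0.51) and nhr-67 (difference 0.80) were higher, 2 of 7 tested, and 1 was called without water replicate 1 or 3, without nicotinic acid replicate 1 or 2, or without MNA replicate 1 or 2.

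The reproductive lists upstream of the embryo had no calls. In edgeR 0 of 19 stem cell and P granule genes, 0 of 21 meiosis genes, 0 of 20 oocyte and maternal genes, 0 of 15 eggshell genes and 0 of 6 yolk genes passed in either direction. Of these 81 genes 6 were higher and 3 lower at an unadjusted edgeR p under 0.05. Over all 13985 genes tested, 2843 in either direction had such a p. DESeq2 called 2 of the 81 higher and 0 lower. Without water replicate 3, edgeR called 1 yolk gene higher. Their medians were -0.030, -0.00085, 0.0048, 0.062 and 0.17 on the log2 scale in that order. The yolk gene vit-6 had 44233, 47050 and 42039 CPM in the water libraries, 31411, 40664 and 44105 CPM with nicotinic acid and 38765, 38893 and 38454 CPM with MNA, with overlap between water and nicotinic acid (difference 0.22, SE 0.11, edgeR adjusted p = 0.277).

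Several collagens of the cuticle were lower in the water libraries, while others, such as dpy-14, dpy-17 and col-121, were higher. Of 14 body shape collagens 8 were lower and 0 higher, with a median of -1.54, against 3.02% of all genes called lower. The list was written with earlier results of these data known, and dpy-14, dpy-17 and sqt-3 were placed in the late embryo list. The count of 0 higher and the median depend on that assignment and are not independent evidence. The gene dpy-13 had 17.8, 13.9 and 24.7 CPM in the water libraries, 77.0, 62.6 and 42.2 CPM with nicotinic acid and 105, 124 and 89.03 CPM with MNA (difference -2.07, SE 0.27, edgeR adjusted p = 0.00698). The gene sqt-1 had 9.32, 6.75 and 14.7 CPM in the water libraries, 38.8, 35.7 and 24.3 CPM with nicotinic acid and 56.4, 60.2 and 46.3 CPM with MNA (difference -2.02, SE 0.27, edgeR adjusted p = 0.00634). Neither overlapped. Among the collagens of the annular furrows, dpy-8 (-1.59) and dpy-9 (-1.50) were lower without overlap, while dpy-2, dpy-3, dpy-7 and dpy-10 overlapped between groups and did not pass. Without water replicate 1, 5 of the 14 were called lower, and 7 without either of the other water libraries.

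Of 113 numbered collagens tested 6 were higher, a share near the 4.89% of all genes called higher. Lower were 42, against 3.02% of all genes, and the median was -0.96. The lower count was 20, 28 and 26 without water replicates 1, 2 and 3, and 63 in DESeq2. The adult cuticle list had 0 of 10 called in edgeR while its median was -2.03. At an unadjusted p under 0.05 it had 8 lower, DESeq2 called 8 lower, and edgeR called 7, 7 and 3 lower without nicotinic acid replicates 1, 2 and 3. Its abundant member col-119 had 1355, 1624 and 1291.5 CPM in the water libraries, 1426.5, 1451 and 1357 CPM with nicotinic acid and 1092, 1214 and 1273 CPM with MNA. Moulting genes had 2 of 10 lower, mlt-10 and nas-36, and 1 without water replicate 1 or MNA replicate 1. The epidermis list had wrt-4 and qua-1 lower and cnc-2 and nhr-25 higher, of 13 tested, and leaving out 1 library at a time gave 0 to 4 higher and 1 to 2 lower.

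Sperm genes had 4 of 20 tested lower in the water libraries, with a median of -0.81, against 3.02% of all genes called lower. These were spe-15, ssq-2, smz-2 and fog-3. Only 13 of the 32 sperm genes were above the floor in every water library. Some of the 20 thus passed the filter only through compound libraries, which favours genes lower in water. The share called and the median are not independent of that filter. Without nicotinic acid replicate 1 the median was -0.398, with 5 of 21 tested called lower. The sperm protein gene ssq-2 had 0.490, 0.488 and 0.450 CPM in the water libraries, 7.30, 2.54 and 2.30 CPM with nicotinic acid and 1.29, 0.786 and 1.33 CPM with MNA (difference -2.15, SE 0.50, edgeR adjusted p = 0.0294). The call count was 0 without water replicate 1, 1 without replicate 2 and 0 without replicate 3. It was 1 without any 1 of the MNA libraries. The share of the sperm list was 0.00566%, 0.00561% and 0.00604% in the water libraries, 0.0103%, 0.00699% and 0.00763% with nicotinic acid and 0.00547%, 0.00555% and 0.00649% with MNA, so that water and MNA overlapped and nicotinic acid lay above both.

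The largest differences toward the water libraries, among genes past the threshold with at least 1 CPM and no overlap, were in the collagen gene col-121, the insulin-like peptide gene ins-19, dsl-6, Y41D4B.6, pqn-73 and ifa-3. The gene ins-19 had 8.42, 5.49 and 6.98 CPM in the water libraries, 0.243, 1.89 and 0.736 CPM with nicotinic acid and 0.584, 0.572 and 0.396 CPM with MNA (difference 3.39, SE 0.37, edgeR adjusted p = 0.00135). The gene col-121 had 11.8, 6.14 and 9.34 CPM in the water libraries, 0.104, 2.16 and 1.38 CPM with nicotinic acid and 0.5002, 0.5004 and 0.864 CPM with MNA (difference 3.44, SE 0.50, edgeR adjusted p = 0.00752). The differences of the other 4 ran from 2.80 to 3.34.

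Among genes past the threshold, with the same limits, the largest in the other direction were in col-162, F27C1.1, fmo-5, col-73, cyp-29A3 and col-156. The flavin-containing monooxygenase gene fmo-5 had 9.45, 8.17 and 8.85 CPM in the water libraries, 12.1, 11.3 and 10.2 CPM with nicotinic acid and 296, 266 and 136 CPM with MNA (difference -2.52, SE 0.34, edgeR adjusted p = 0.00794). The cytochrome P450 gene cyp-29A3 had 0.981, 1.34 and 1.43 CPM in the water libraries, 1.67, 1.68 and 1.73 CPM with nicotinic acid and 35.1, 34.1 and 19.1 CPM with MNA (difference -2.47, SE 0.28, edgeR adjusted p = 0.00131). In both the nicotinic acid values lay just above the water values and the MNA values far above. The collagen gene col-73 had 4.68, 3.82 and 4.80 CPM in the water libraries, 35.4, 17.7 and 16.6 CPM with nicotinic acid and 28.6, 30.99 and 24.4 CPM with MNA (difference -2.51, SE 0.30, edgeR adjusted p = 0.00385). The calls of F27C1.1 and col-156 were lost without any 1 of the water libraries (edgeR adjusted p of 0.0727 to 0.107), and that of col-162 without water replicate 1 or 3 (edgeR adjusted p of 0.0564 and 0.0559).

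Other lists had few calls, to be read beside the 4.89% of all genes called higher and the 3.02% called lower. Of 15 histone genes tested his-24 was higher and his-61 and his-74 were lower, and leaving out 1 library at a time gave 0 to 1 higher and 0 to 2 lower. In the intestine list elt-2 was higher (0.27) and the peptide transporter gene pept-1 lower (-0.20) of 15 tested, and in the muscle list mlc-1, a myosin light chain gene, was lower (-0.26) of 16. The gland gene phat-4 (-1.24, of 7) and the gonadal gene ceh-18 (-0.35, of 8) were lower, and skr-4 of the pathogen response was higher (0.32, of 4). Each of these lists lost a call without water replicate 1 and without water replicate 2. In edgeR with group as the only term, 0 members passed in 12 lists. These were neurons, transmitter types, sensory neurons, glia, excretory system, coelomocytes, pharyngeal muscle, constitutive chaperones, propionate breakdown, NAD metabolism, the mitochondrial genome and ribosomal proteins. With the replicate number as a block, 3 of 6 pharyngeal muscle genes were lower. Of the 180 genes of these 12 lists, 3 were higher and 39 lower at an unadjusted edgeR p under 0.05. Over all 13985 genes tested, 2843 in either direction had such a p. Of the 39, 20 were ribosomal protein genes. DESeq2 called 0 of the 180 higher and 4 lower. Without 1 library, a list among these 12 had at most 3 calls, the 3 in the mitochondrial genome without nicotinic acid replicate 3, and neurons had 2 without nicotinic acid replicate 1. For NAD metabolism the median over 16 genes was -0.011. The starvation list had 0 of 6 called in edgeR and in DESeq2 and 0 at an unadjusted p under 0.05, and 1 lower without water replicate 1. Its members acs-2 and icl-1, high in water replicate 1, were at 0.72 (SE 0.34) and 0.50 (SE 0.27) on the log2 scale, with overlap.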

How the data were processed

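Read counts per gene were deposited by the authors as 1 table with RPKM beside them. The submitters' processing notes name HTSeq, TopHat 1.4.1 and CASAVA. Build and annotation: not given in the sources used here. The deposited RPKM values were used only as an alternative: the gene lengths they imply correlated at r = 0.109 (logs, 18225 genes) with the union of exons in Ensembl release 115 (WBcel235) and lay within 1.25-fold of it for 21.9% of genes. TPM was therefore computed from the deposited counts and these exon lengths, a choice made after seeing the data. Of 45461 entries 44933 matched an Ensembl gene, and the 528 others, with 0.349% to 0.368% of the water counts, stayed in all totals. A floor of 3 counts covers counting error only.

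The comparison of groups used edgeR 4.0.16 (R 4.3.3): filterByExpr at a minimum count of 10, TMM factors (0.963 to 1.03), and a robust quasi-likelihood fit of all 9 libraries with group as the only term, two-sided, adjusted by Benjamini-Hochberg over 13985 genes. DESeq2 1.42.0 was an alternative. Fold changes are log2 differences of water minus the mean of the compound groups. The fitting code was tested on simulated data. Variation between libraries was the SD of log2(CPM + 0.5). No 2 water libraries agreed within sampling noise (mean chi-square per gene 11.7 to 19.5).

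The gene lists and the groups of genes described were chosen with earlier results of these data known. Genes named are the 25 highest by CPM, members of each list with the highest CPM or at 0 counts, the 25 most and 5 least variable, and the 6 largest differences each way among genes past the threshold, of at least 1 CPM and with no overlap; other members and other genes named were chosen after their values were seen. Sequences were not used here.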

Additional observations from a re-analysis of the deposited data

How the results depend on the processing

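In the comparison of water with both compounds, leaving out 1 library at a time gave 326 to 729 genes higher and 179 to 447 lower in the water libraries. Other settings stayed within 1.5 times of the 684 and 423 called: DESeq2 size factors (673 and 439), library totals (583 and 426), no filter on low counts (793 and 542) and the DESeq2 Wald test (753 and 553). With the replicate number as a block 675 were higher and 468 lower. Deviations of same-numbered libraries correlated at r of -0.328 to 0.364, with 5 of 9 pairs over 0.1. All 3 water and MNA pairs were over it (0.187, 0.221 and 0.364), above every differently numbered pair of those groups. Same-numbered water and nicotinic acid pairs ran from -0.328 to 0.239. Higher than these were water replicate 1 with nicotinic acid replicate 2 (0.354) and water replicate 2 with nicotinic acid replicate 1 (0.3). Same-numbered nicotinic acid and MNA pairs had 0.0645, -0.045 and 0.27 for replicates 1, 2 and 3. Deviations taken within groups of 3 libraries cannot show whether the numbers pair the groups. For water and MNA a pairing is a hint from the data, not the design. With the block 6 of 12 late embryo genes were higher, and 3 of 6 pharyngeal muscle genes were lower, against 0 without it.

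Shares of counts depend on the unit. From the deposited RPKM, yolk held 0.989%, eggshell 1.05%, early embryo 0.00720% and late embryo genes 0.119%. Per exon length, yolk held 1.97%, eggshell 1.44% and early embryo genes 0.0136%. Without ribosomal RNA, mitochondrial and yolk genes in the total, eggshell held 1.95% and early embryo genes 0.00944%. Of the 25 genes with the most counts, 5 were among the top 25 by RPKM and 9 per exon length. Of the 50 most variable genes, 22 stayed at a minimum of 1 CPM, 21 at 20 CPM, and 18 to 43 when 1 water library was left out (18 without replicate 1). The cause of these shifts was not tested. No named difference between the groups changed sign when recomputed, while shares and counts have no sign to change. Of the main values recomputed, 22 moved beyond the limit set for them and 43 stayed within it. Among the others 75 moved, 442 stayed and 9 grew weaker. Depth limits statements on genes below 3 counts.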

Other observations

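Some entries of genes that are known to be abundant or that define a tissue were listed at 0 counts in every water library. These were COX1, ND5, ATP6 and ND4L of the mitochondrial genome and the muscle regulator hlh-1. Their neighbours in the same groups were high, with cytochrome b at a mean of 1500.5 TPM and the muscle gene pat-10 at 641 TPM in the water libraries.

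The gene lengths implied by the deposited counts and RPKM were short for some abundant genes. They came to 21 bases for ant-1.1, whose exons sum to 1284 bases, and to 191 bases for unc-54, whose exons sum to 6204 bases. For vit-2 they came to 9625 bases against 4934. An implied length under 50 bases was found for 1380 of 18225 genes.

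Among entries that are not protein-coding, the pseudogene F07H5.5 had 430, 415 and 499 CPM in water replicates 1, 2 and 3, and 391 of 2004 pseudogenes were above the floor. Of 15363 piRNA entries 4 were above it, and of 609 tRNA entries 0.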
